A study of Mus musculus with 11 samples.

Results

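De novo lipogenesis, the making of fatty acids from carbohydrate, was followed in mouse liver after forced Notch signalling through 10 genes, fixed by name: Mlxipl, Srebf1, Thrsp, Acly, Me1, Acaca, Fasn, Elovl6, Scd1 and Pnpla3. Every array probe whose RefSeq accession led to these names was taken, which gave 18 of 56605 probes and 10 of 22911 named genes. The 11 arrays measured liver RNA of C57Bl6/J male mice injected intraperitoneally at 8 weeks of age with adeno-associated virus serotype 8 (AAV8) and killed 5 days later. The control group (GFP, n = 3) received 6e+11 vector genomes of a green fluorescent protein vector. The NICD1 group (n = 3) received 3e+11 of a vector for the Notch1 intracellular domain, the part that enters the nucleus once the receptor is cleaved, with 3e+11 of the GFP vector. The NICD2 group (n = 3) received the Notch2 equivalent with the same dose of GFP vector. The NICD1&2 group (n = 2) received 3e+11 of each Notch vector and no GFP vector, so in that group the lack of GFP and the joint dose cannot be told apart. All vectors used the CMV promoter, which is not restricted to hepatocytes, and every animal carried a vector. The labels name no individual animals, so p-values measure the spread between these samples only.

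In the fed liver, insulin raises SREBP-1c, encoded by Srebf1, and glucose activates ChREBP, encoded by Mlxipl. These transcription factors switch on the enzymes that turn citrate into acetyl-CoA, build it into palmitate, and then lengthen and desaturate the chain. The products are stored as triglyceride in lipid droplets or leave the liver in lipoproteins. RNA of whole liver was measured, and fewer cells of a type and less RNA per cell cannot be told apart.

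The 250 bases before the annotated starts of the genes on which the results turn are shown first, from RefSeq on GRCm38.p6. Of the 10 genes, 9 had an entry, with 13 starts between them, and the array probes do not tell the starts of a gene apart. Srebf1 and Fasn are shown because on the brightest probe of each gene they were the members whose NICD1&2 arrays lay below every GFP array, and Plin5, a lipid droplet gene outside the 10, because it passed the test. Capitals mark CCAAT, the letters of the CCAAT box bound by NF-Y, and TGGGAA, the core letters bound by RBPJ, the DNA-binding partner of the Notch intracellular domain, on either strand. The window before the second Plin5 start held neither and is not shown.
Srebf1, first start, chr11:60222582-60222831, minus strand: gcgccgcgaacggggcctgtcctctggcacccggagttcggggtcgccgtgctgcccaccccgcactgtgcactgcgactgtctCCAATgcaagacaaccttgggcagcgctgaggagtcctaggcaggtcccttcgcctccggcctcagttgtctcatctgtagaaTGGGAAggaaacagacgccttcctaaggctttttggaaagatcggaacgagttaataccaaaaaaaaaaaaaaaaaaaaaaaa
Srebf1, second start, chr11:60220628-60220877, minus strand: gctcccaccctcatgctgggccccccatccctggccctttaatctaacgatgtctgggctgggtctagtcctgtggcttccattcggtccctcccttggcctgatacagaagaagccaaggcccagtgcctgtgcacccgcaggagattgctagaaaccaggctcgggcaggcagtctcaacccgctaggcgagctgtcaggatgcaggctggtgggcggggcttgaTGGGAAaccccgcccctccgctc
Srebf1, the third start, chr11:60210472-60210721, minus strand: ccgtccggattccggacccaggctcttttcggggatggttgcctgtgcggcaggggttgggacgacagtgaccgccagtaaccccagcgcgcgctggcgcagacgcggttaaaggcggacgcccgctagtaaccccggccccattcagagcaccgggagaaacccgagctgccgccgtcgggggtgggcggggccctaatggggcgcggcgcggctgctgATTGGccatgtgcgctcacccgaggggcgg
Fasn, chr11:120824548-120824797, minus strand: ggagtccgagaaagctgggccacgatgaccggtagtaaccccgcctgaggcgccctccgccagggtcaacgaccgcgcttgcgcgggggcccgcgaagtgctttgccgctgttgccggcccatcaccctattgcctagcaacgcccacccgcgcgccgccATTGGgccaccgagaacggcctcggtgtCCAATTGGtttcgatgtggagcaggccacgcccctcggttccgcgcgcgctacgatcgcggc
Plin5, first start, chr17:56117549-56117798, minus strand: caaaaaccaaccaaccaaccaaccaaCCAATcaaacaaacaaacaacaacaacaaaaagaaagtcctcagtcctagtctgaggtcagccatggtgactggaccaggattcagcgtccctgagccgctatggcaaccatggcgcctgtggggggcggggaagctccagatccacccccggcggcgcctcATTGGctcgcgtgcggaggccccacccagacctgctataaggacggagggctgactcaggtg

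TGGGAA was found before the first and second Srebf1 starts, 83 to 78 and 23 to 18 bases upstream, and not before Fasn. It was present in 4 of the 13 windows, and in 21.6% of all 32851 upstream windows of the same length. The longer GTGGGAA, which contains it, was in 0 of 13 and in 5.42% of all windows. CCAAT was in 7 of 13 against 33.8% of all windows, and the Fasn window held it 3 times, with 2 overlapping copies on opposite strands between 62 and 55 bases upstream. The E-box CACGTG was in 1 of 13, before the first Mlxipl start, against 6.02% of all windows. These are matches of letters on both strands in short windows, and no binding was measured.

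All values are log2 of the processed signal after each array was scaled to its 75th percentile, which is 0 on this scale. All 18 probes passed the filter that kept 36055 probes, namely a signal well above background on at least 2 of 11 arrays. Of these 18, 16 were well above background on all 11 arrays, and the exceptions were the probes of Pnpla3. Across arrays, 57.0% to 62.0% of spots were well above background and none was saturated. The hepatocyte list (Alb, Apoa1, Hnf4a and others) was detected in full, 10 of 10 on every array. Of 10 adipocyte markers, Lep, Fabp4 and Lipe were well above background on all 11 arrays, Cfd, Adig and Cidea on 9, Adipoq on 2, Retn on 1, and Plin1 and Slc36a2 on 0. The summed adipocyte list (log2 of the sum of its members) ran from 2.09 to 2.33 in GFP, 2.13 to 2.27 in NICD1, 2.00 to 2.29 in NICD2 and 2.16 to 2.53 in NICD1&2. The summed bile duct list was higher in every group with a Notch vector, at 4.57 to 5.38 against 3.02 to 3.49 in GFP, with 9 of its 10 genes above the GFP mean in each group. Spp1 made up most of that sum, at 2.64 to 5.29 over the arrays against at most 0.12 for any other member, and the list's median log2 fold changes were 0.43, 0.46 and 0.70 in NICD1, NICD2 and NICD1&2. The Kupffer cell list (Clec4f, Vsig4 and others) had 0, 1 and 5 of 10 genes above the GFP mean in NICD1, NICD2 and NICD1&2. Its median log2 fold changes were -0.26, -0.19 and 0.022. All 10 were higher in NICD1&2 than in NICD1 and than in NICD2, as were 63.5% and 64.2% of all probes. The part of these lists in the results below was not tested. The brightest Notch1 probe averaged 0.56 in GFP, 0.78 in NICD1, 0.18 in NICD2 and 0.71 in NICD1&2, and that of Notch2 averaged 1.76, 2.06, 1.97 and 1.76, and for both genes the groups given that gene's vector overlapped with GFP. The sources used here do not place these probes within the genes, and whether they read vector RNA was not tested. Notch targets, a list chosen after values of these data were seen, differed among themselves. Nrarp, well above background on 7 of 11 arrays, averaged -5.98 in GFP, -4.30 in NICD1, -2.45 in NICD2 and -1.85 in NICD1&2. Hes1 averaged -2.49, -2.51, -0.85 and -1.12, Hey1 -2.61, -2.50, -2.32 and -1.90, and Heyl -2.57, -2.79, -3.00 and -3.21 in the same order.

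The first question was whether forced Notch1 or Notch2 signalling changed the lipogenic programme against GFP. None of the 10 genes passed the test (limma, Benjamini-Hochberg adjusted p under 0.05) in NICD1, NICD2 or NICD1&2, where 0.00832%, 0.0527% and 0.0998% of all probes did. At an unadjusted p under 0.05 the counts were 0, 0 and 1 of 10, against 5.48%, 6.81% and 14.8% of all probes. By the study's definition of a changed gene, an unadjusted P under 0.15 with a fold change above 1.8, the count was also 0 of 10 in all 3 comparisons, against 2.22%, 1.98% and 6.23% of all probes. Each gene was represented by its brightest probe. In each comparison 5 genes had a positive and 5 a negative log2 fold change. The median was -0.023 in NICD1, 0.021 in NICD2 and 0.015 in NICD1&2, beside 0.015, 0.020 and 0.12 over all probes. Of the 30 confidence intervals (95%), 28 lay within a 2-fold change in either direction, and the exceptions were Fasn and Pnpla3 in NICD1&2. The interval's half-width on the log2 scale ran from 0.28 to 0.72 for the groups of 3 and reached 0.80 for NICD1&2. These intervals are not adjusted for the number of probes, so shifts larger than a half-width could still fail the test. Srebf1 in NICD1&2, at -0.51 (interval -0.82 to -0.21), had a limma adjusted p of 0.190.

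**Figure D1:**
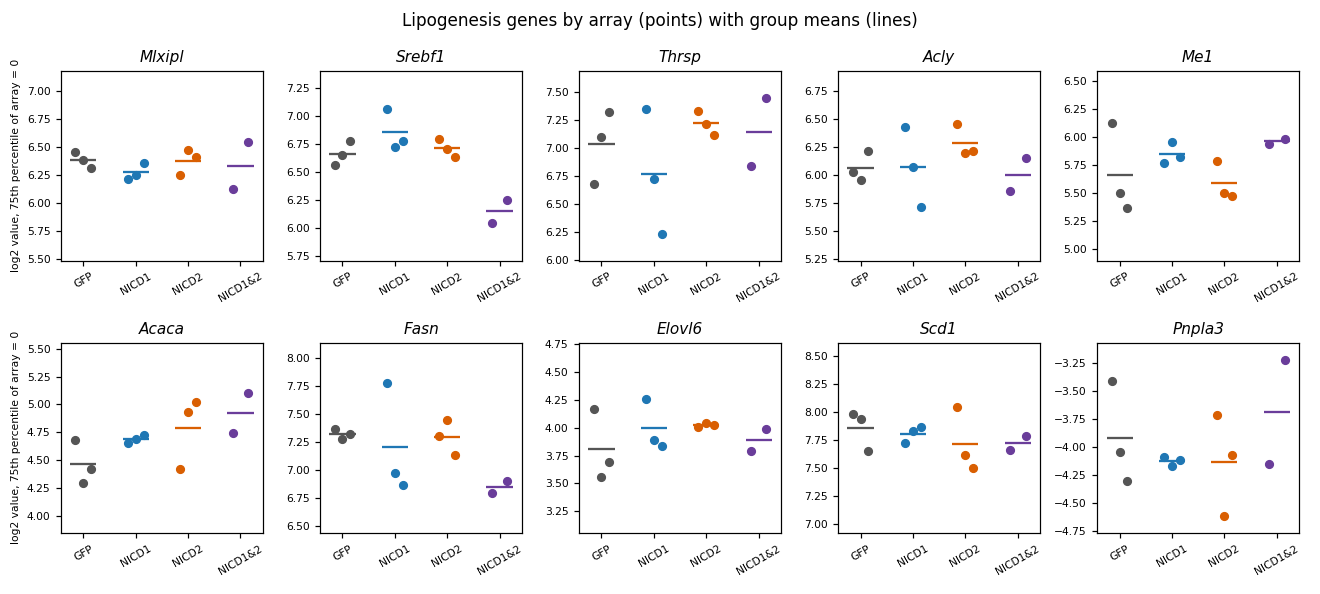
The log2 value of the 10 lipogenesis genes (y axis, 75th percentile of each array at 0; all panels span the same 1.7 log2 units) in GFP, NICD1, NICD2 and NICD1&2 livers, with a point per array and a line at each group mean. In Srebf1 and Fasn both NICD1&2 points lie below all GFP points, and in Acaca both lie above.

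**Figure D2:**
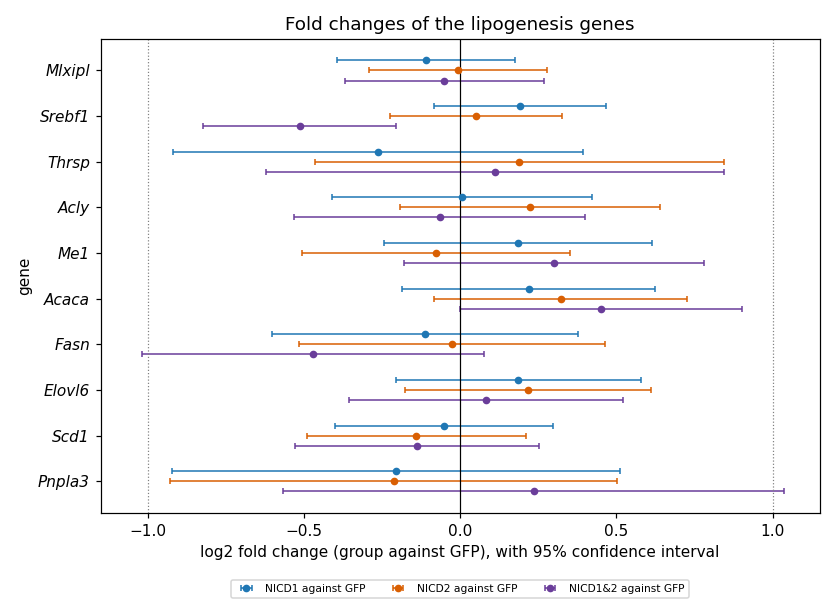
Log2 fold change of each gene against GFP (x axis) with its 95% confidence interval from limma, for NICD1, NICD2 and NICD1&2; dotted lines mark a 2-fold change. The interval of Srebf1 in NICD1&2, from -0.82 to -0.21, is the single interval of 30 that does not reach 0.

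Among the regulators, Srebf1 had the lowest unadjusted p. Its values were 6.56, 6.65 and 6.77 in GFP, 7.07, 6.72 and 6.77 in NICD1, 6.79, 6.71 and 6.63 in NICD2, and 6.04 and 6.25 in NICD1&2. Both NICD1&2 arrays were thus below all 9 other arrays, while the other 3 groups overlapped. The log2 fold change of NICD1&2 against GFP was -0.51 (SE 0.14, limma adjusted p = 0.190), a 1.43-fold lower level, and -0.56 and -0.52 within the first and second slide. Over all its alternatives the adjusted p ran from 0.0593 to 0.492. The NICD1&2 group was itself shifted upward by a median of 0.12 over all probes on this scaling and by 0.010 after quantile normalization. Relative to that median, Srebf1 was -0.63 on the deposited scaling and -0.69 after quantile normalization. In the single-vector groups Srebf1 was 0.19 (SE 0.12, adjusted p = 0.914) in NICD1, or 0.086 without NICD1 replicate 1, and 0.050 (adjusted p = 0.987) in NICD2.

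Mlxipl lay in a narrow band. It read 6.46, 6.38 and 6.32 in GFP, 6.21, 6.25 and 6.36 in NICD1, 6.25, 6.47 and 6.41 in NICD2, and 6.12 and 6.55 in NICD1&2. The NICD1&2 pair held both the lowest and the highest of the 11 values, which together spanned 1.34-fold. Log2 fold changes against GFP were -0.11, -0.0069 and -0.051, and the second Mlxipl probe gave 0.0024, 0.018 and -0.081.

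Thrsp, thyroid hormone responsive protein, is a small partner of the lipogenic enzymes that answers to carbohydrate and thyroid hormone. It read 6.68, 7.10 and 7.32 in GFP, 7.35, 6.72 and 6.23 in NICD1, 7.33, 7.21 and 7.12 in NICD2, and 6.84 and 7.45 in NICD1&2. The 3 NICD1 arrays alone spanned nearly the whole range, and NICD1 averaged -0.26 (SE 0.29, adjusted p = 0.929) against GFP. That value was 0.0051 without NICD1 replicate 3 and -0.55 without NICD1 replicate 1. The NICD2 value, 0.19, was 0.012 without GFP replicate 1 and 0.34 without GFP replicate 3. Both Thrsp probes moved together over the arrays (r = 0.95).

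Of the enzymes that supply carbon and reducing power, ATP citrate lyase (Acly) cleaves citrate to cytosolic acetyl-CoA and malic enzyme (Me1) makes NADPH. Acly read 6.03, 5.96 and 6.22 in GFP, 6.43, 6.07 and 5.71 in NICD1, 6.46, 6.20 and 6.22 in NICD2, and 5.85 and 6.15 in NICD1&2. Me1 read 6.13, 5.50 and 5.36 in GFP, 5.76, 5.95 and 5.82 in NICD1, 5.78, 5.50 and 5.48 in NICD2, and 5.94 and 5.98 in NICD1&2. On these probes the groups overlapped with GFP for both genes, and the first GFP array held the highest Me1 value of all. Log2 fold changes against GFP were 0.0046, 0.22 and -0.065 for Acly, and 0.18, -0.077 and 0.30 for Me1, with adjusted p between 0.491 and 0.998. The second Acly probe gave -0.054, 0.22 (adjusted p = 0.916) and -0.14 (adjusted p = 0.743), and on it NICD2 lay above and NICD1&2 below GFP without overlap. The brighter Acly probe in NICD2 was 0.14 without NICD2 replicate 1. The Me1 value in NICD1 was 0.035 without GFP replicate 3 and 0.42 without GFP replicate 1. The second Me1 probe gave -0.059 in NICD1&2, opposite in sign to the first, whose 0.30 was 0.15 without GFP replicate 3 and 0.53 without GFP replicate 1. Relative to the median of all probes that 0.30 was 0.18, and it was 0.12 after quantile normalization.

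Acetyl-CoA carboxylase 1 (Acaca) makes malonyl-CoA, the committed step, and fatty acid synthase (Fasn) joins malonyl units into palmitate. The brightest Acaca probe, A_55_P2019058, read 4.69, 4.30 and 4.42 in GFP, 4.66, 4.69 and 4.72 in NICD1, 4.42, 4.93 and 5.03 in NICD2, and 4.74 and 5.10 in NICD1&2. On this probe only the NICD1&2 values stayed clear of GFP. Log2 fold changes were 0.22 (SE 0.18), 0.32 (SE 0.18) and 0.45 (SE 0.20), with adjusted p of 0.919, 0.825 and 0.338. The NICD1 value was 0.13 without GFP replicate 2, the NICD2 value was 0.21 without NICD2 replicate 3 and 0.51 without NICD2 replicate 1, and the NICD1&2 value 0.27 without NICD1&2 replicate 2. Relative to the median of all probes the NICD1&2 value was 0.33, and it was 0.24 with normexp background and quantile normalization. Of the 4 Acaca probes, all had a mean above GFP in all 3 groups on the deposited scaling, by 0.17 to 0.54. Probe A_52_P318040 was the most precise of them. It read 1.37, 1.19 and 1.26 in GFP against 1.62, 1.72 and 1.78 in NICD2 without overlap, a log2 fold change of 0.44 (SE 0.11, unadjusted p = 0.00262, limma adjusted p = 0.329). Its NICD1 and NICD1&2 arrays were also clear of GFP, at 0.27 (adjusted p = 0.883) and 0.17 (adjusted p = 0.490). For NICD1&2 the gap to GFP was only 0.0039, in a group whose median over all probes was 0.12. On probe A_55_P2084703 this held for NICD2 (0.40) and NICD1&2 (0.42). These 4 probes measure the same gene in the same RNA and are not independent.

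**Figure D3:**
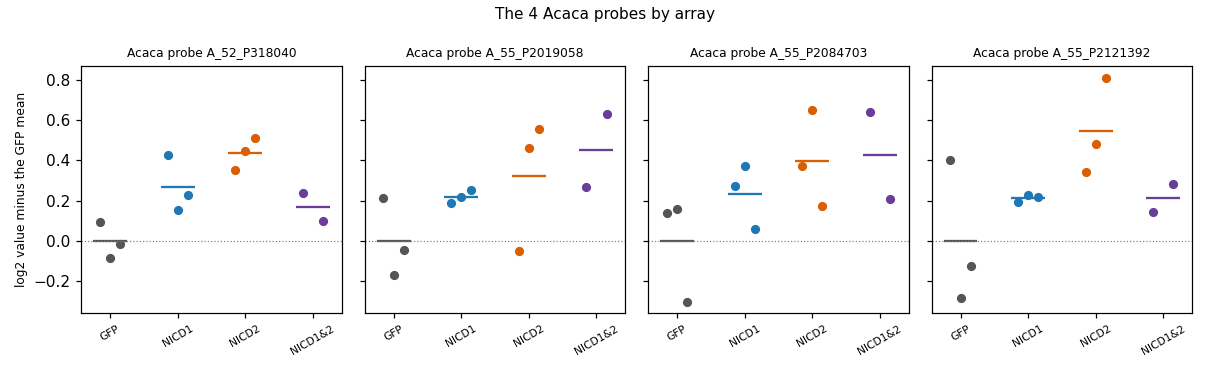
The 4 Acaca probes (panels) on each array, as the log2 value minus that probe's GFP mean (y axis), with points for arrays and lines for group means. All group means of NICD1, NICD2 and NICD1&2 lie above 0, by 0.17 to 0.54. A_52_P318040 is the one probe on which no point of these groups overlaps with GFP, in NICD1&2 by a gap of 0.0039.

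Fasn had the opposite sign in NICD1&2. It read 7.36, 7.28 and 7.32 in GFP, 7.78, 6.97 and 6.87 in NICD1, 7.31, 7.44 and 7.13 in NICD2, and 6.79 and 6.90 in NICD1&2. GFP arrays were close together, NICD1 arrays fell on both sides of them, and both NICD1&2 arrays lay below GFP. The log2 fold change in NICD1&2 was -0.47 (SE 0.24, 95% interval -1.02 to 0.077, adjusted p = 0.383), with -0.53 and -0.41 within the slides and -0.59 relative to the median of all probes. In NICD1 it was -0.11 and in NICD2 -0.025.

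Elovl6 lengthens palmitate to stearate and stearoyl-CoA desaturase 1 (Scd1) makes oleate from it. Elovl6 read 4.17, 3.56 and 3.69 in GFP, 4.26, 3.89 and 3.83 in NICD1, 4.003, 4.04 and 4.03 in NICD2, and 3.79 and 3.98 in NICD1&2. Scd1 read 7.98, 7.94 and 7.65 in GFP, 7.72, 7.83 and 7.87 in NICD1, 8.04, 7.61 and 7.497 in NICD2, and 7.66 and 7.78 in NICD1&2. All groups overlapped with GFP for both genes. Log2 fold changes against GFP were 0.19, 0.22 and 0.082 for Elovl6, the last turning to -0.045 after quantile normalization, and -0.051, -0.14 and -0.14 for Scd1, the first turning to 0.026 after quantile normalization. The Scd1 value in NICD1&2 was -0.48 with normexp background and quantile normalization, and ran from -0.24 without GFP replicate 3 to -0.075 without NICD1&2 replicate 1. That in NICD2 ran from -0.30 without NICD2 replicate 1 to -0.029 without NICD2 replicate 3. Elovl6 in NICD1 ran from 0.054 without NICD1 replicate 1 to 0.37 without GFP replicate 1, and in NICD2 from 0.093 without GFP replicate 2 to 0.40 without GFP replicate 1.

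Pnpla3, a lipid droplet protein induced by SREBP-1c and ChREBP, was the dim member. Its brighter probe was well above background on 9 of 11 arrays and read -3.41, -4.04 and -4.30 in GFP, -4.09, -4.17 and -4.11 in NICD1, -3.71, -4.61 and -4.07 in NICD2, and -4.15 and -3.22 in NICD1&2. Its pooled SD within groups, 0.43, was the largest of the 10, and log2 fold changes were -0.21, -0.21 and 0.24 with adjusted p between 0.746 and 0.967. The other probe was well above background on 5 of 11 arrays and on 0 of 2 in NICD1&2. It gave -0.084, -0.31 and -0.17, the last opposite in sign to the brighter probe. The pair did not move together (r = -0.18 over 11 arrays).

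The second question was whether the Notch vectors differed from each other, or the combination from each alone. Between NICD1 and NICD2, 0 of 10 genes passed, against 0.00277% of all probes, and on the brightest probes 0 of 10 were free of overlap, against 9.31%. On the Acaca probe A_55_P2121392 the NICD1 arrays lay below the NICD2 arrays without overlap, by -0.33. At an unadjusted p under 0.05 this was also 0 of 10, against 3.74%, and 0 of 10 met the study's definition, against 1.26%. The largest of these differences was Thrsp, at -0.45 in NICD1 against NICD2 (95% interval -1.11 to 0.20), followed by Me1 at 0.26 (-0.17 to 0.69). The Thrsp value was -0.74 without NICD1 replicate 1 and -0.18 without NICD1 replicate 3, the latter smaller than that of Me1. For 9 of 10 genes the interval lay within 2-fold, Thrsp being the exception.

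For NICD1&2, 0 of 10 genes passed against NICD1 and 0 of 10 against NICD2, where 0.0139% and 0.00277% of all probes did. Srebf1 had the lowest unadjusted p of the 10 in both, at -0.71 (SE 0.14, 95% interval -1.01 to -0.40, limma adjusted p = 0.272) against NICD1 and -0.56 (SE 0.14, adjusted p = 0.551) against NICD2. Against NICD1 it passed under a single alternative, normexp background with quantile normalization, at -0.88 and an adjusted p of 0.0377. Fasn was -0.36 against NICD1 and -0.44 against NICD2, with adjusted p of 0.538 and 0.578, and the first was -0.072 without NICD1 replicate 1. The departure from additivity, NICD1&2 less NICD1 less NICD2 plus GFP, was -0.76 for Srebf1 (SE 0.18, adjusted p = 0.553), and 0 of 10 genes passed that test, as did 0.00% of all probes. At an unadjusted p under 0.05 the counts were 1 of 10 in each of these 3 tests, against 12.5%, 8.90% and 7.03% of all probes.

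Groups free of overlap are given as counts over the brightest probes beside the same share of all probes. Against GFP they numbered 0 of 10 in NICD1 and 0 of 10 in NICD2, beside 12.4% and 13.4%. In NICD1&2 there were 3 of 10, Acaca above and Srebf1 and Fasn below, beside 34.5% of all probes (24.1% above and 10.4% below). Against NICD1 the combination had 2 of 10 beside 30.7%, Acaca above and Srebf1 below. Against NICD2 it had 5 of 10 beside 25.2% (18.1% above and 7.13% below), Me1 above and Srebf1, Fasn, Acly and Elovl6 below. Of these, Acly differed by -0.29 (adjusted p = 0.628), or by -0.14 without NICD1&2 replicate 1 and -0.44 without NICD1&2 replicate 2. Against NICD2 the second Acly probe was also lower without overlap, by -0.36, as were the Acaca probes A_52_P318040 and A_55_P2121392, by -0.27 and -0.33. With 2 or 3 arrays in a group an exact permutation test of a single gene cannot go below p = 0.10.

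The NICD1&2 arrays differed from each other across the set. NICD1&2 replicate 1 held the lowest value of all 11 arrays for 3 of the 10 genes, and replicate 2 held the highest for 4. When each gene was standardised over the arrays and averaged, these replicates stood at -0.78 and 0.52, farther apart than the replicates of GFP (-0.35 to 0.51), NICD1 (-0.43 to 0.57) or NICD2 (-0.021 to 0.42). The median log2 fold change of the 10 genes against GFP was accordingly -0.21 without NICD1&2 replicate 2 and 0.17 without replicate 1. Srebf1 and Fasn kept their sign either way, at -0.62 and -0.41 for Srebf1 and at -0.53 and -0.41 for Fasn. Me1, Acaca and Scd1 also kept theirs.

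The median spread within groups was close to that of all probes, which were not matched to the 10 genes for brightness. The pooled SD ran from 0.13 for Srebf1 and 0.14 for Mlxipl to 0.39 for Thrsp and 0.43 for Pnpla3, with a median of 0.23 over the 10 genes and 0.22 over all probes. The fold between the highest and the lowest array ran from 1.34 for Mlxipl to 2.63 for Pnpla3.

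Over the 45 pairs of the 10 genes the median Pearson's r across 11 arrays was 0.090, with 28 positive, and 0 pairs had a permutation p under 0.05 after Benjamini-Hochberg adjustment, against 4 before it. Thrsp with Acly gave the highest r, 0.80 (permutation p = 0.00233, adjusted p = 0.105; rho 0.77, p = 0.00745, adjusted p = 0.335), 0.67 without the 2 arrays farthest from the Thrsp median, 0.90 for deviations from the group means and 0.81 within the 6 arrays of the first slide. Srebf1 with Fasn, regulator and enzyme, gave r = 0.71 (permutation p = 0.0149, adjusted p = 0.292; rho 0.45, p = 0.174, adjusted p = 0.602), 0.50 without the 2 farthest arrays, 0.76 for the deviations and 0.95 on the first slide. Srebf1 with Acaca gave r = -0.38 (permutation p = 0.250, adjusted p = 0.668; rho -0.54, p = 0.0954, adjusted p = 0.602). For deviations from the group means the median r over the 45 pairs was 0.11. Among Srebf1, Thrsp, Acly and Fasn, singled out after these values were seen, all 6 pairs reached 0.73 to 0.90 for the deviations, with Srebf1 and Thrsp at 0.88 against 0.078 over all arrays. NICD1 replicate 1 was the highest of its group for each of these genes, and the deviations were not correlated without it. The second slide held 5 arrays, too few for a value. Among 13855 other genes, the averaged profile of the 10 was most like those of Zfp579, Ccdc32, Szrd1, Mrs2 and Sfxn5, with r of 0.87 to 0.90 over the same arrays, and most unlike that of Zfp948, with r = -0.91. These are the extremes of many genes and were given no test.

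**Figure D4:**
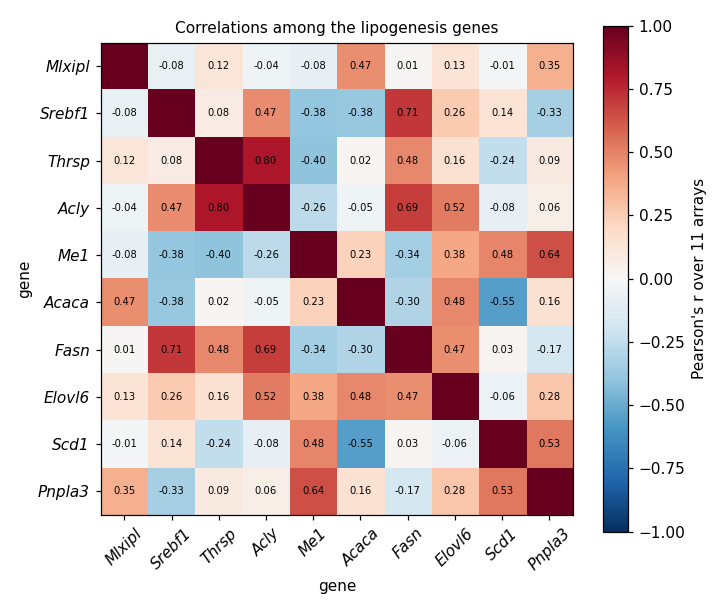
Pearson's r between the 10 lipogenesis genes over 11 arrays, as printed in each cell and coloured from -1 to 1. Thrsp with Acly stands out at r = 0.80, while Acaca and Scd1 run oppositely at r = -0.55; 0 of 45 pairs passed adjustment.

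Around these 10 genes, 78 other genes of carbon supply, fatty acid synthesis, its regulators, glyceride synthesis and storage, and ChREBP targets were listed, and all 78 were measured. The counts past the limma test were 0 in NICD1, 0 in NICD2 and 1 in NICD1&2, against the same 0.00832%, 0.0527% and 0.0998% of all probes. By the study's definition 5.13%, 6.41% and 5.13% of the 78 counted as changed, against 2.22%, 1.98% and 6.23% of all probes. The medians were -0.051, -0.031 and 0.046. All 18 genes listed under fatty acid synthesis, and all 10 ChREBP targets, stayed out of both definitions in the 3 comparisons against GFP. Among the genes that met either definition without overlap with GFP were Lpin1, Plin4, Plin5 and Angptl8, all listed under glyceride synthesis and storage.

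Plin5, perilipin 5, coats lipid droplets in cells that burn fat and ties them to mitochondria, and was the gene that rose past the test. It read 4.66, 4.62 and 4.66 in GFP, 4.76, 5.20 and 5.08 in NICD1, 5.78, 5.42 and 5.68 in NICD2, and 6.11 and 6.13 in NICD1&2. The groups stood in the order GFP, NICD1, NICD2 and NICD1&2 with no overlap between neighbours. The log2 fold change was 1.47 in NICD1&2 (SE 0.15, 2.78-fold, limma adjusted p = 0.0126), 0.98 in NICD2 (SE 0.13, adjusted p = 0.0616) and 0.37 in NICD1 (SE 0.13, adjusted p = 0.883). Its second probe gave 1.42 (adjusted p = 0.0432), 0.89 and 0.28. The NICD1&2 call was lost at a nearly equal fold change without GFP replicate 1 (adjusted p = 0.0501), without GFP replicate 2 (0.0601) and without NICD1&2 replicate 2 (0.181), and with the compared groups alone (0.234). With the replicate number as a block the NICD1&2 call was lost too. In NICD2 Plin5 passed with normexp background and quantile normalization (0.00437) and over probes detected on all arrays (0.0251).

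Lpin1, lipin 1, makes diacylglycerol from phosphatidate and also serves as a nuclear coactivator. It read 2.54, 3.13 and 3.85 in GFP, 3.87, 4.78 and 4.98 in NICD1, 4.93, 5.55 and 5.50 in NICD2, and 5.51 and 5.06 in NICD1&2. All 8 arrays with a Notch vector were above all GFP arrays, by log2 fold changes of 1.37 (SE 0.38), 2.16 (SE 0.38) and 2.11 (SE 0.43), with limma adjusted p of 0.747, 0.15 and 0.129. The other Lpin1 probes gave 1.48, 2.12 and 2.09, and 0.72, 1.30 and 1.19.

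Plin4, a further droplet coat protein, read -1.08, -0.88 and -1.02 in GFP, -0.52, 0.0019 and 0.44 in NICD1, 0.24, 0.25 and 0.56 in NICD2, and 0.29 and -0.38 in NICD1&2. All 8 were again above GFP, with log2 fold changes of 0.97, 1.35 and 0.95 and adjusted p of 0.735, 0.182 and 0.221, the last at 0.61 without NICD1&2 replicate 1.

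Angptl8, a feeding-induced secreted inhibitor of lipoprotein lipase, was the named gene with lower values. It read 6.00, 5.77 and 4.76 in GFP, 3.38, 4.76 and 4.74 in NICD1, 3.45, 4.71 and 5.25 in NICD2, and 4.19 and 4.70 in NICD1&2. The NICD1&2 arrays were below GFP and the other groups overlapped with it. Log2 fold changes were -1.21, -1.04 and -1.07 (adjusted p = 0.901, 0.802 and 0.419). The first was -0.76 without NICD1 replicate 1 and the second -0.53 without NICD2 replicate 1.

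**Figure D5:**
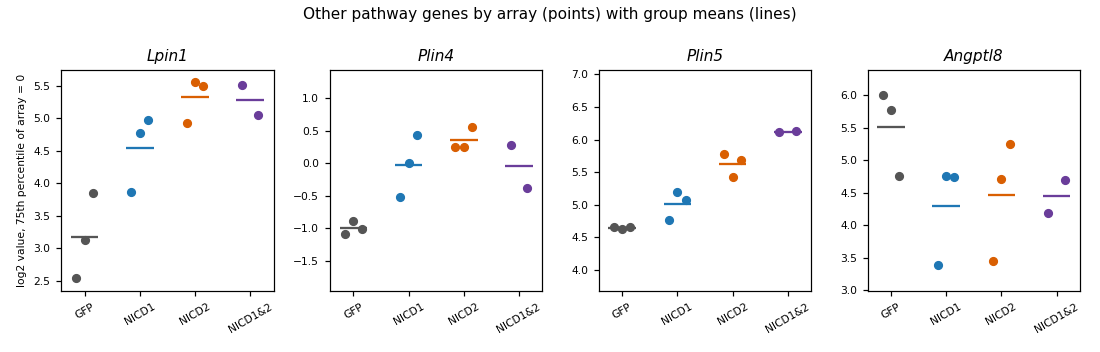
The log2 value (y axis, 75th percentile of each array at 0) of 4 named genes around lipogenesis, with a point per array and a line at each group mean. Plin5 ran from 4.62 to 4.66 in GFP and from 6.11 to 6.13 in NICD1&2, and all 8 arrays with a Notch vector lay above GFP for Lpin1, Plin4 and Plin5.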

How the data were processed

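Liver RNA of 11 samples was labelled with 1 dye and hybridised to Agilent arrays of 62976 spots. Per the file headers, Feature Extraction 11.5.1.1 gave the deposited scanner intensity of each spot, from which the processed signal and the flag for well above background were used. The authors scaled the raw values to the 75th percentile and deposited them as log2 values, which were used as given; each array's table equalled log2 of the processed signal less a constant to within 0.01 for nearly all probes. The labels and the study's methods name different RNA kits and the methods an array of another size. Of 56745 table rows, 140 control probes were left out, 32994 probes were named through RefSeq accessions, and the number of arrays limits the precision.

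limma 3.58.1 (R 4.3.3) fitted a mean per group over all 11 arrays on 36055 probes, those that at least 2 arrays flagged as well above background, with Benjamini-Hochberg adjustment over all of them, and was first tested on simulated data. A gene was represented by the probe with the highest mean. Pathway genes were named where they met the study's definition (P under 0.15, fold change above 1.8) or an adjusted p under 0.05 against GFP without overlap; 1 such gene is not reported here. Correlations used 100000 permutations, two-sided. The 10 genes and all lists were chosen with earlier results of these data known. Alternatives covered scaling, background (normexp, offset 50), filters, samples in the fit, blocks, array weights and each array left out. Slides, scanned as units, were the batch: 6 arrays on the first and 5 on the second, each holding all 4 groups.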

Additional observations from a re-analysis of the deposited data

How the results depend on the processing

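Across all alternatives, the count of lipogenesis genes past the test stayed at 0 in every comparison, except for 1 (Srebf1) in NICD1&2 against NICD1 with normexp background and quantile normalization. The median log2 fold change of the 10 genes moved by more than the spread between arrays mainly in comparisons with NICD1&2: with quantile normalization it was -0.15 against GFP, -0.20 against NICD1 and -0.21 against NICD2, and with normexp background and quantile normalization -0.15, -0.19 and -0.29. With each array left out it ran from -0.21 to 0.17 against GFP, from -0.15 to 0.11 against NICD1 and from -0.24 to 0.12 against NICD2, and for NICD1 against GFP from -0.044 to 0.12. The count of other pathway genes past the test, an alternative chosen after seeing the data, was 1 for NICD2 with normexp background and quantile normalization and 1 over probes detected on all arrays; for NICD1&2 it was 2 over those probes (Plin5 and Lpin2), 0 with the compared groups alone, and 0 to 1 with each array left out. The cause of these moves was not tested.

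Same-numbered arrays did not deviate together (median r 0.036, lowest -0.41), so the numbers were not taken as pairs. With the replicate number as a block, Srebf1 in NICD1&2 against GFP was -0.52 (adjusted p = 0.272), and Plin5 had an adjusted p of 0.0673, which left 0 other pathway genes past the test; no other call changed.

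No member whose sign turned had passed the test. With quantile normalization Scd1 in NICD1 was 0.026, and Thrsp and Elovl6 in NICD1&2 -0.070 and -0.045; with normexp background and quantile normalization Mlxipl in NICD2 was 0.042, and Thrsp, Elovl6 and Pnpla3 in NICD1&2 -0.12, -0.13 and -0.052; with array weights Acly in NICD1 was -0.0079, and Mlxipl and Me1 in NICD2 0.017 and 0.021. With arrays left out, the ranges that crossed 0 in NICD1 were -0.55 to 0.0051 for Thrsp, -0.18 to 0.18 for Acly, -0.40 to 0.058 for Fasn, -0.15 to 0.011 for Scd1 and -0.40 to 0.049 for Pnpla3. In NICD2 they were -0.00075 to 0.11 for Srebf1, -0.054 to 0.058 for Mlxipl, -0.23 to 0.15 for Me1, -0.10 to 0.056 for Fasn and -0.42 to 0.042 for Pnpla3. In NICD1&2 they were -0.26 to 0.16 for Mlxipl, -0.19 to 0.42 for Thrsp, -0.21 to 0.083 for Acly, -0.043 to 0.26 for Elovl6 and -0.23 to 0.70 for Pnpla3. Under all alternatives Srebf1, Mlxipl, Me1, Acaca and Elovl6 kept their sign in NICD1. So did Thrsp, Acly, Acaca, Elovl6 and Scd1 in NICD2, and Srebf1, Me1, Acaca, Fasn and Scd1 in NICD1&2.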

Other observations

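Lipogenesis falls on fasting and follows the daily clock, and the labels do not give feeding state or hour of collection, so 12 fasting and 12 clock genes were read beside the set. Of either list 0 genes passed the limma test against GFP in any group. The fasting list (Cpt1a, Pdk4, Pck1 and others) had medians of 0.13 in NICD1, 0.066 in NICD2 and 0.36 in NICD1&2, beside 0.12 over all probes in the last, where 11 of 12 had a higher mean than GFP, as did 65.0% of all probes. Acot1, an acyl-CoA thioesterase of fatty acid breakdown, read 4.38, 4.36 and 3.58 in GFP and 5.67 and 5.61 in NICD1&2, a log2 fold change of 1.53 (SE 0.27, limma adjusted p = 0.0984). It passed with normexp background and quantile normalization (1.31, adjusted p = 0.0395) and over probes detected on all arrays (adjusted p = 0.0397).

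The clock list had medians of 0.0046, 0.19 and 0.23. Ciart, a repressor of the clock, read -0.056, 0.052 and 0.44 in GFP, 1.16, 0.85 and 1.04 in NICD2, and 1.09 and 0.98 in NICD1&2, without overlap. Its log2 fold changes were 0.87 (adjusted p = 0.224) and 0.89 (adjusted p = 0.152), and with normexp background and quantile normalization they passed at 0.69 (adjusted p = 0.0389) and 0.77 (adjusted p = 0.0205). Npas2, a clock activator, exceeded the background threshold on 2 of 3 GFP arrays but on 0 of 3 in NICD2, with -4.33, -4.15 and -4.05 against -4.64, -5.83 and -4.71. Its NICD1 arrays, at -5.03, -4.50 and -4.63, were also below every GFP array. The NICD1&2 arrays, at -3.95 and -4.33, overlapped with GFP, with a log2 fold change of 0.035. The log2 fold change in NICD2, where no array was well above background, was -0.88 (adjusted p = 0.591), so its size is uncertain. It was -0.50 without NICD2 replicate 2 and -0.078 with normexp background and quantile normalization. Whether feeding or hour of collection differed between groups was not tested.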
